A study of Mus musculus with 6 samples.

Results

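The genes described here encode 9 signals that cells of a stem cell niche pass to one another: Kitl, Csf1, Cxcl12, Mdk, Ptn, Pdgfa, Pdgfb, Lif and Cntf. They were selected by symbol from the 17006 genes of the deposited tables, and all 9 were present. The set was chosen from earlier results on these libraries that included the comparison of ages, so the values of the 9 genes by age are given as a description, with no test. The libraries are bulk RNA sequencing of primary neural stem cells that were isolated from the subventricular zone, the germinal layer beside the lateral ventricles, of C57BL/6 mice. The young group holds 3 libraries from mice of 2 months, and the aged group holds 3 libraries from mice of 15 to 18 months. Subventricular tissue was pooled from 5 mice before dissociation, and both groups were cultured in proliferation medium ahead of RNA extraction, so the values describe cultured cells and not the niche itself. No treatment or genetic change is named for either group.

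Values are FPKM, fragments per kilobase of transcript scaled to library size, which allows levels to be compared between genes. From the steps between low values, each library was estimated to hold 5265000 to 5470000 counted reads. The labels do not say that the 3 libraries of a group came from separate pools of mice, so the spread between them may be technical. The 8 neural stem cell markers examined summed to 5012 to 5182 FPKM (young) and 4929 to 5107 FPKM (aged), and each was present in both groups. Lists for other cell types were low except for the oligodendrocyte lineage, which summed to 1933 to 1978 FPKM (young) and 2040 to 2081 FPKM (aged). Pericyte and fibroblast markers summed to 0.93 to 1.16 FPKM in the young group and 3.11 to 4.08 FPKM in the aged one (7 of 8 markers in the tables, 6 of them under 1 FPKM throughout). Within that list Col1a1 rose from a mean of 0.423 to 2.46 FPKM (limma adjusted p = 0.0107). It entered the fit, which needed a mean of 1 FPKM, only through its aged libraries. Young and aged means were 0.0133 and 0.633 FPKM for Col1a2, 0.02 and 0.13 FPKM for Col3a1 and 0 and 0.01 FPKM for Pdgfrb. Acta2, Rgs5 and Dcn had lower means in aged libraries. The corresponding ranges were 12.8 to 14.2 and 16.3 to 19.3 FPKM for the 5 neuronal markers (3 of them under 1 FPKM throughout). They were 3.07 to 4.23 and 3.16 to 3.54 FPKM for microglial markers (5 of 7 in the tables, 4 of them under 1 FPKM throughout). Endothelial markers summed to 1.57 to 2.81 and 2.86 to 3.13 FPKM (5 of 6, 4 of them under 1 FPKM throughout). Of these, Egfl7 had young and aged means of 1.51 and 2.56 FPKM (limma adjusted p = 0.147). Pecam1, Cldn5 and Tie1 had lower means in aged libraries, and Kdr had means of 0.417 and 0.44 FPKM. For ependymal and choroid plexus markers (4 of 5, 2 of them under 1 FPKM throughout) the sums were 20.7 to 25.4 and 23.9 to 27.8 FPKM. No marker in the tables was at 0 in all 6 libraries. The part of these cell types in the values below was not tested, and in bulk RNA fewer cells of a type and less RNA per cell cannot be told apart.

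These ligands act through different kinds of receptor. Stem cell factor, the product of Kitl, and CSF1 bind the related receptor tyrosine kinases KIT and CSF1R, and the PDGF chains bind PDGF receptors of the same class. CXCL12 is a chemokine that binds the G protein-coupled receptor CXCR4 and the scavenging receptor ACKR3. Midkine and pleiotrophin, from Mdk and Ptn, are paralogous heparin-binding growth factors that bind the receptor phosphatase PTPRZ1, ALK, LRP1 and syndecans. LIF and CNTF belong to the interleukin-6 family and signal through LIFR and the shared subunit gp130 (Il6st), to which CNTF adds its own subunit, CNTFR.

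The promoters of Kitl and Ptn are shown because Kitl was the most abundant member whose age groups did not overlap and Ptn was by far the most abundant of all 9. Both are RefSeq sequences of GRCm38.p6, the mm10 assembly, and hold the 250 bases before the RefSeq start on the gene's own strand. Both RefSeq starts lie inside the gene spans given with the values below, which are from GENCODE and begin further upstream. The Kitl window lies at chr10:100015571-100015820 on the plus strand and the Ptn window at chr6:36810180-36810429 on the minus strand. Capitals mark matches on either strand to a TATA box (TATAAA), a GC box (GGGCGG) or a CCAAT box (CCAAT).
Kitl: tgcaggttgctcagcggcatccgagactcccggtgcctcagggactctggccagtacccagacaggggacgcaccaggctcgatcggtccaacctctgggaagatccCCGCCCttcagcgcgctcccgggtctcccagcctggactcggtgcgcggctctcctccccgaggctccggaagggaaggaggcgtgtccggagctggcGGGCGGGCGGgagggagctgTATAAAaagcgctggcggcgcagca
Ptn: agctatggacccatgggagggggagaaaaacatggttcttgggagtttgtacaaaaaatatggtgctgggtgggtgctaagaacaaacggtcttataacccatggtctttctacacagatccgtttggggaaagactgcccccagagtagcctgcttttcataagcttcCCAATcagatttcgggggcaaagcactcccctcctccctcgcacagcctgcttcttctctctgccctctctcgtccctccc

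The Kitl window held 1 TATA box and 3 GC box matches, of which a pair overlapped, and had a GC content of 69.2%. The Ptn window held 1 CCAAT box and neither of the other motifs, with a GC content of 52.0%. Among all 32851 promoter windows of the same length, 12.4% held the TATA box, 32.7% the GC box and 33.9% the CCAAT box, and the median GC content was 52.4%. Of the 9 genes, 7 had an entry in the promoter table, Mdk and Pdgfb being the others. A match is a description of letters and not of factor binding.

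The 9 ligand genes spanned a wide range of levels. Ptn alone made up 90.8% to 91.3% of the summed FPKM of the 9 genes in young libraries and 92.2% to 92.7% in aged ones. In young libraries the order of mean FPKM was Ptn (485), Kitl (19.6), Pdgfa (12.6), Csf1 (7.51), Mdk (4.53), Cntf (1.63), Lif (1.03), Pdgfb (0.287) and Cxcl12 (0.143). Neighbours in this order did not overlap, except Cntf with Lif and Pdgfb with Cxcl12. In aged libraries the first 5 places were the same and did not overlap. Lif (0.700), Cntf (0.443), Cxcl12 (0.217) and Pdgfb (0.127) followed, each overlapping the next.

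**Figure D1:**
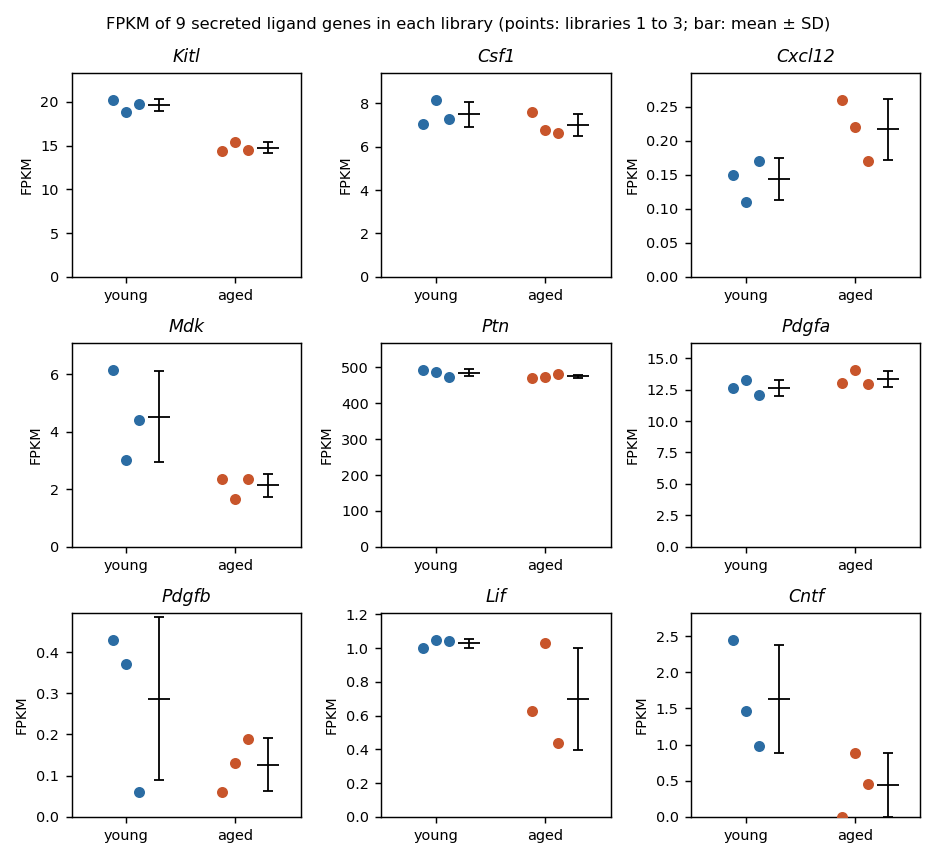
FPKM of each of the 9 ligand genes in the 3 young (blue) and 3 aged (orange) libraries, with the group mean and SD beside the points and each vertical axis starting at 0. The groups are separate for Kitl, Mdk and Cntf and overlap or touch for the other 6 genes.

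Kitl, Mdk and Cntf had lower values in every aged library than in any young one, and the groups of the other 6 genes overlapped or touched. The comparison asks how the donors' age is reflected in the RNA of the cultured cells. It was fitted with limma on log2(FPKM + 1) over 11912 genes, those whose mean reached 1 FPKM. Of the 9 ligand genes 6 entered the fit, and Cxcl12, Pdgfb and Lif lay under the filter. Cntf entered only through its young libraries. The fit's tests are used below only for genes outside the 9. Lower aged values with no overlap between the groups were found for 3 of the 6 genes, against 8.58% of all tested genes, and higher ones for 0 of the 6, against 8.98% (17.6% in either direction). The median log2 change was -0.24 over the 6 and 0.003 over all genes tested. Nothing is read from these counts, because the genes were picked from results of the same contrast.

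**Figure D2:**
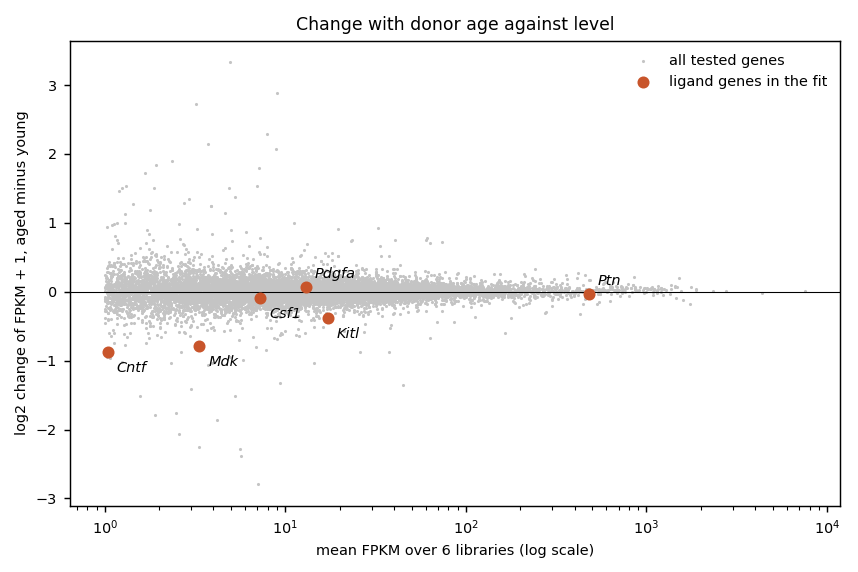
Log2 change of FPKM + 1 (aged minus young) against mean FPKM over the 6 libraries on a log axis, for all 11912 tested genes (grey) and the 6 ligand genes in the fit (orange). Kitl, Mdk and Cntf lie below 0, and Pdgfa, Csf1 and Ptn lie near it.

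Kitl (gene 17311, mm10 chromosome 10, 100015630 to 100100416) encodes stem cell factor, which is made as a membrane-bound protein and shed by proteases. It was at 20.2, 18.9 and 19.8 FPKM in young libraries 1 to 3 and at 14.3, 15.4 and 14.5 FPKM in aged libraries 1 to 3. Every aged library was below every young one. The means were 19.6 ± 0.690 and 14.8 ± 0.588 FPKM (SD, n = 3 each), a level 24.7% lower in aged libraries. The difference of log2(FPKM + 1) was -0.39 ± 0.04 (SE), and it lay between -0.42 and -0.37 with any 1 library left out. This rests on about 1811 estimated reads in young and 1326 in aged libraries.

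Kit, the gene of its receptor, was far lower than its ligand and did not pass the test. Its level was 1.22, 1.08 and 1.25 FPKM in young and 1.35, 1.11 and 1.20 FPKM in aged libraries, which overlapped. By limma the log2 change was 0.02 ± 0.13 (SE; adjusted p = 0.973), and its sign turned without young 2 or aged 1 (-0.01 and -0.02). The ratio of Kitl to Kit FPKM was 15.8 to 17.5 in young and 10.6 to 13.9 in aged libraries.

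Csf1 (gene 12977, chromosome 3, 107741048 to 107760469) encodes the growth factor on which microglia and macrophages depend. It lay at 7.07, 8.17 and 7.28 FPKM in young and 7.60, 6.78 and 6.66 FPKM in aged libraries, and the groups overlapped. The difference on the log2 scale was -0.09 ± 0.08 (SE), -0.03 without young 2 and -0.14 without aged 1. The receptor gene Csf1r was not analysed here. Il34, the other ligand of that receptor, lay at 0.64 to 0.96 FPKM (young) and 0.65 to 1.51 FPKM (aged), under the filter.

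Cxcl12 (gene 20315, chromosome 6, 117168535 to 117181367) attracts CXCR4-bearing progenitors in the embryonic and adult brain. It was close to the limit of detection in these cultures, at 0.15, 0.11 and 0.17 FPKM in young and 0.26, 0.22 and 0.17 FPKM in aged libraries. That is about 8 estimated reads over the 3 young and 12 over the 3 aged libraries, and a difference was not detectable at this depth.

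Its receptor genes were higher than the ligand. Cxcr4 was at 5.52, 6.82 and 5.13 FPKM in young and 4.51, 4.86 and 3.67 FPKM in aged libraries, so the groups did not overlap. The log2 change was -0.35 ± 0.13 (SE), and with a limma adjusted p of 0.311 it did not pass. Ackr3 overlapped between the groups, at 3.37 to 5.07 FPKM for the young and 3.97 to 6.99 FPKM for the aged group (limma adjusted p = 0.736).

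Mdk and Ptn, the heparin-binding pair, differed widely in abundance. Ptn (gene 19242, chromosome 6, 36714929 to 36810220) was the 135th most abundant of all genes, at 494, 488 and 474 FPKM in young and 471, 473 and 481 FPKM in aged libraries. The groups overlapped, and the difference on the log2 scale was -0.030 ± 0.019 (SE), -0.018 without young 1 and -0.047 without young 3. Mdk (gene 17242, chromosome 2, 91929805 to 91932297) was at 6.16, 3.01 and 4.41 FPKM in young and 2.37, 1.67 and 2.36 FPKM in aged libraries. All 3 aged values were below the lowest young one, but the young libraries themselves differed widely. The means were 4.53 ± 1.58 and 2.13 ± 0.401 FPKM (SD, n = 3 each), with a log2 difference of -0.79 ± 0.27 (SE). It was -0.41 with a pseudocount of 5 and -1.01 with one of 0.1, and -0.58 without young 1. These values stand on about 63 estimated reads in the young and 29 in the aged libraries. The FPKM of Ptn was 80.1 to 162 times that of Mdk in young and 199 to 283 times in aged libraries.

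Of the genes for receptors of this pair, Ptprz1 and Sdc3 were abundant and none passed the test. Ptprz1 encodes a receptor phosphatase of glial progenitors that pleiotrophin inhibits. It lay at 257 to 266 FPKM (young) and 252 to 266 FPKM (aged), with a log2 change of -0.03 ± 0.03 (SE; limma adjusted p = 0.818). Sdc3, a heparan sulfate proteoglycan of neural cells, was at 203, 199 and 201 FPKM in young and 209.7, 213 and 214 FPKM in aged libraries, without overlap. Its limma log2 change was 0.08 ± 0.03 (SE; adjusted p = 0.3095). Sdc4 moved the other way, also without overlap and without passing, from a mean of 58.1 to 53.2 FPKM (log2 change -0.13 ± 0.04, limma adjusted p = 0.272). Lrp1, an endocytic receptor, was at means of 31.7 and 34.0 FPKM, Sdc1 at 16.0 and 15.3 FPKM and Sdc2 at 11.6 and 11.9 FPKM (limma adjusted p from 0.584 to 0.889). Sdc1 was lower in every aged library than in any young one, and the groups of Lrp1 and Sdc2 overlapped. Alk stayed at 0.31 to 0.85 FPKM over the 6 libraries, under the filter.

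Pdgfa and Pdgfb encode the A and B chains of platelet-derived growth factor, and only the A chain was well detected. Pdgfa (gene 18590, chromosome 5, 138976014 to 138997370), a mitogen of oligodendrocyte progenitors, was at 12.6, 13.3 and 12.1 FPKM in young and 13.0, 14.1 and 13.0 FPKM in aged libraries. The groups overlapped, and the log2 difference was 0.07 ± 0.05 (SE), 0.04 without aged 2. Pdgfb (gene 18591, chromosome 15, 79995874 to 80014977) was at 0.43, 0.37 and 0.06 FPKM in young and 0.06, 0.13 and 0.19 FPKM in aged libraries. Young 3 was as low as the lowest aged library, and about 14 estimated reads in young and 6 in aged libraries carry these values. Both genes overlap an annotated antisense transcript (6330403L08Rik at Pdgfa and Gm41361 at Pdgfb). The strand setting of the counting is not given in the sources used here, so reads of the 2 strands cannot be told apart.

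Pdgfra, the receptor gene for the A chain and a marker of oligodendrocyte progenitors, was at 1.59, 1.48 and 1.51 FPKM in young and 1.96, 2.17 and 2.62 FPKM in aged libraries. All aged values were higher, with a log2 change of 0.36 ± 0.13 (SE) that did not pass (limma adjusted p = 0.309). Pdgfrb was listed at 0 in 5 libraries and at 0.03 FPKM in aged 2. Nrp1, a coreceptor of several growth factors, had means of 5.16 and 5.51 FPKM (limma adjusted p = 0.784).

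Lif and Cntf were both near 1 FPKM. Lif (gene 16878, chromosome 11, 4257557 to 4272514), which promotes self-renewal of neural stem cells, was at 1.00, 1.05 and 1.04 FPKM in young and 0.63, 1.03 and 0.44 FPKM in aged libraries. Aged 2 lay within the young range and the other aged libraries below it, on about 66 estimated reads in young and 44 in aged libraries. Cntf (gene 12803, chromosome 19, 12763660 to 12765632), a factor best known from astrocytes and Schwann cells, was at 2.45, 1.46 and 0.98 FPKM in young libraries. In aged libraries it was at 0 in the first and at 0.88 and 0.45 FPKM in the others. The highest aged value was just under the lowest young one. The log2 difference was -0.87 ± 0.35 (SE), and it was -0.28 with a pseudocount of 5 and -2.11 with one of 0.1. Cntf lies inside the annotated span of Zfp91 on the same strand, and the tables also list a joint transcript, Zfp91Cntf. That transcript was at 0, 1.83 and 1.05 FPKM in young and 1.24, 0.84 and 1.45 FPKM in aged libraries. The authors' counting could have split reads between Cntf and Zfp91Cntf, so the Cntf values are uncertain.

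The receptor genes of LIF and CNTF were higher than both ligands, and each overlapped between the ages. Cntfr was at means of 35.6 ± 1.18 and 34.3 ± 1.95 FPKM, Il6st at 19.4 ± 1.08 and 18.3 ± 0.416 FPKM and Lifr at 7.75 ± 0.550 and 7.25 ± 0.0577 FPKM in young and aged libraries (SD, n = 3 each). Their limma adjusted p-values ran from 0.696 to 0.764.

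**Figure D3:**
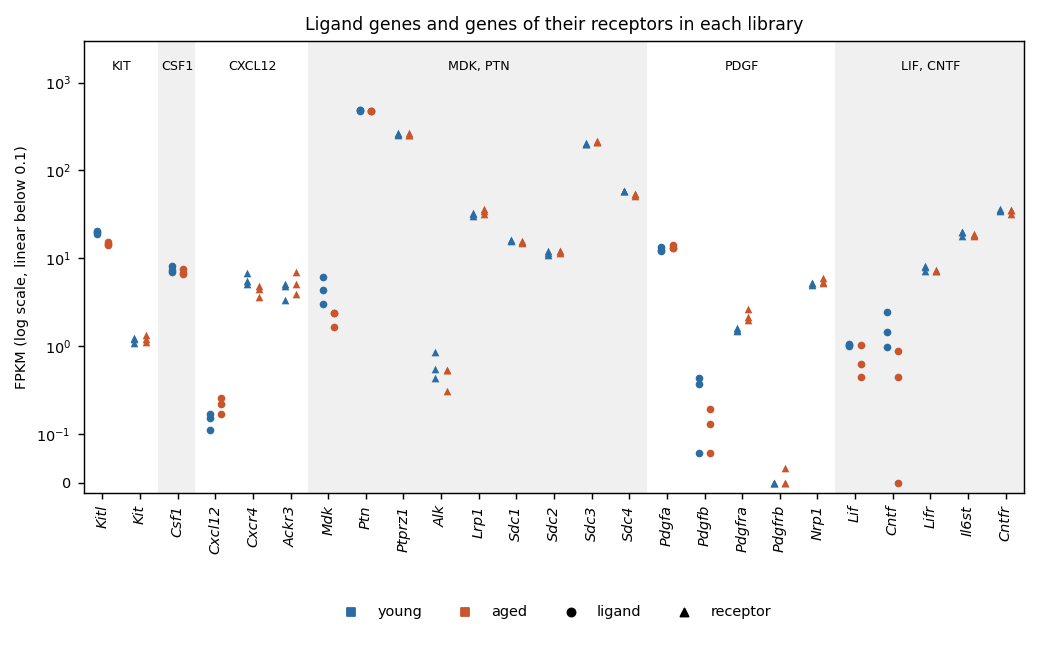
FPKM of the ligand genes (circles) and of the genes of their receptors (triangles) in each young (blue) and aged (orange) library, grouped by ligand family, on a log axis that is linear below 0.1. Cxcl12, Lif and Cntf lie below their receptor genes, whereas Kitl and Pdgfa lie above Kit and Pdgfra.

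The receptor genes as a list moved in both directions. Of 17 listed, 16 were in the tables and 14 entered the fit, where 0 passed limma at an adjusted p of 0.05 (Benjamini-Hochberg). Of all tested genes 0.722% passed, 0.395% with lower and 0.327% with higher aged values. At an unadjusted p under 0.05, 2 were higher (Sdc3 and Pdgfra) and 2 lower (Sdc4 and Cxcr4), 28.6% of the list against 11.9% of all tested genes. The changes were split evenly, 7 higher and 7 lower, with a median log2 change of -0.002 beside 0.003 over all genes.

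Other ligands of the same families were mostly at or under 1 FPKM. Of 23 listed, 16 were in the tables and 4 entered the fit, with 0 passing limma and 1 in each direction at an unadjusted p under 0.05 (2 of the 4, where 11.9% of all tested genes did so). Ccl2, a chemokine for monocytes, was at 1.63, 2.56 and 1.40 FPKM in young and 0.95, 0.72 and 0.71 FPKM in aged libraries, without overlap. It entered the fit only through its young libraries, with a log2 change of -0.66 ± 0.18 (SE; limma adjusted p = 0.182). Cxcl14 was at means of 2.01 and 2.73 FPKM (0.379) and Pdgfc, the gene of the PDGF C chain, at 1.56 and 1.71 FPKM (0.894). Cx3cl1, the fractalkine that signals to microglia, was the one abundant member, at 49.4 ± 2.74 and 49.3 ± 2.79 FPKM (SD, n = 3 each; limma adjusted p = 0.992). The interleukin-6 family genes Il11, Ctf1 and Clcf1 had means of 0.28 to 1.03 FPKM in either group and lay under the filter.

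Of 24 genes that carry the signals of these receptors inside the cell, 22 entered the fit and 0 passed limma. At an unadjusted p under 0.05, 3 were lower and 1 higher, 18.2% of the list against 11.9% of all tested genes, and 16 of the 22 had a lower mean of log2 values in aged libraries, against 5833 of all 11912 genes. The median log2 change was -0.04. Jak1, a kinase bound to gp130, was at 23.4, 23.3 and 24.7 FPKM in young and 20.7, 19.9 and 19.1 FPKM in aged libraries. The groups were separate, with a log2 change of -0.25 ± 0.05 (SE), and the limma adjusted p was 0.0985 (0.0802 to 0.265 over the alternatives). Stat3, the transcription factor downstream of gp130, was at 51.5, 51.0 and 49.96 FPKM in young and 47.6, 44.9 and 45.8 FPKM in aged libraries, also without overlap (limma adjusted p = 0.223). Cbl, a ubiquitin ligase that turns off receptor kinases, had means of 17.2 and 15.2 FPKM (0.287), and the kinase Src 43.8 and 47.6 FPKM (0.349). Socs3, a feedback gene induced by STAT3, had means of 1.59 and 1.26 FPKM with overlapping groups.

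Ligands of this kind are shed from membranes, cleaved from precursors or held by sulfated matrix. Of 20 genes listed for these steps, 19 were in the tables and 17 entered the fit, with 0 passing limma. At an unadjusted p under 0.05, 1 was higher and 2 lower, 17.6% of the list against 11.9% of all tested genes, and the median log2 change was 0.02. Bcan, the brain proteoglycan brevican, was at 227, 228 and 230.1 FPKM in young and 248, 255 and 258 FPKM in aged libraries. By limma its log2 change was 0.15 ± 0.03 (SE; adjusted p = 0.0602), and it passed when the filter was set at 5 FPKM (limma adjusted p = 0.0456). Mmp14, a membrane metalloproteinase, had means of 32.9 and 28.3 FPKM and did not overlap (0.147). Adam10, a sheddase, was at 42.8 and 39.9 FPKM (0.365), and Chst11, which sulfates chondroitin chains, at 59.6 and 55.5 FPKM (0.425). The PDGF convertase gene Furin was at means of 11.6 and 11.4 FPKM, and the sheddase gene Adam17 at 20.6 and 20.9 FPKM.

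**Figure D4:**
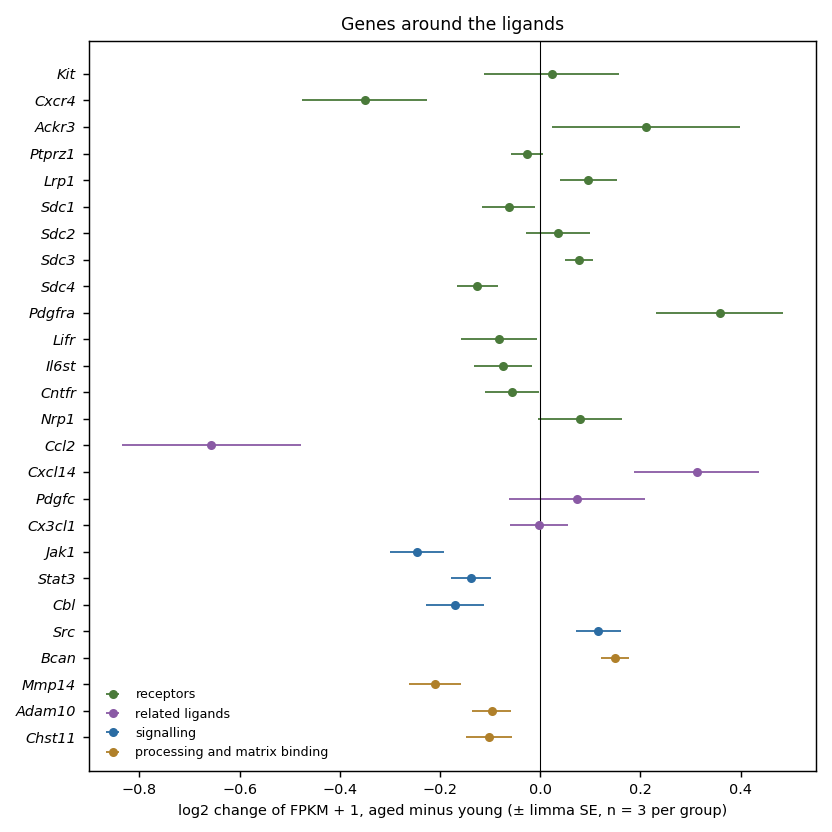
Log2 change of FPKM + 1 (aged minus young) with its limma standard error (n = 3 per group) for the receptor genes in the fit and the 4 genes with the smallest unadjusted p of each other list. The changes lie between -0.66 (Ccl2) and 0.36 (Pdgfra), and 0 of these genes passed the threshold.

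The genes most like the members across the 6 libraries were sought for the member with the highest and the one with the lowest log2 change in the fit. For Pdgfa these included Mast1 and Sufu, with Pearson correlations of log2(FPKM + 1) of 0.988 and 0.981 over 6 libraries. For Cntf these were Gabbr1, Net1 and Stk35, with correlations of 0.992, 0.988 and 0.988. Over so few libraries 16 and 32 of the tested genes reached a correlation of 0.95 with Pdgfa and Cntf, so the names are a description only.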

How the data were processed

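Total RNA of cultured cells was depleted of ribosomal RNA and made into 6 libraries, per the labels' protocols. Each library has a table of FPKM that the authors deposited, per the file headers. The submitters' processing notes list the tools TopHat and Cuffdiff and the build mm10, without versions. Annotation, strand setting and scaling between libraries are not given in the sources used here. Groups follow the ages that the labels give. Log2(FPKM + 1) of genes whose mean reached 1 FPKM was tested with R 4.3.3 and limma 3.58.1 (linear model without covariates, empirical Bayes with a trend, two-sided) and Benjamini-Hochberg adjustment over all 11912 genes. For the ligand genes the difference of log2 means is given with the SE from both groups' variances. The fit was also run on simulated data, and nothing is read from that run here. Gene positions are from GENCODE M21 (mm10), promoters and 16962 of 17006 identifiers from RefSeq GRCm38.p6. Tables and figures used matplotlib 3.10.9, numpy 2.4.6 and pandas 2.3.3 under Python 3.11.15.

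Depth was estimated from the step that 1 read makes in low values of genes with 1 transcript of known length. Between 3.5 and 8.5 estimated reads, 54.2% to 60.3% of the values of a library were whole to within 0.15 reads, where chance gives 30%. Estimated reads are approximate, most of all for genes with several transcripts.

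The members, the lists and the tests were chosen with earlier results of these data known. The text names all 9 members, all listed receptor genes and, of each other list, the genes that passed or up to 4 with the smallest unadjusted p. It also names the 3 genes that correlate best with 2 members, of which 1 is not reported here. Other genes of the lists (Il34, Il11, Ctf1, Clcf1, Socs3, Furin and Adam17) were named after their values were seen. The same holds for the pericyte and fibroblast markers named (Col1a1, Col1a2, Col3a1, Acta2, Rgs5 and Dcn) and the endothelial ones (Egfl7, Pecam1, Cldn5, Tie1 and Kdr). Alternatives covered the pseudocount, the filter, 3 scalings, limma's trend and robust options, a replicate block and leaving out each library.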

Additional observations from a re-analysis of the deposited data

How the results depend on the processing

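The count of genes that passed limma, 86, was 11 without the trend and 22 with a replicate block, and ranged from 39 to 70 with 1 library left out. The replicate numbers showed no clear pairing of the libraries, which so few libraries cannot exclude. The deviations of same-numbered libraries correlated at 0.008, -0.0719 and 0.108. Young 3 and aged 3 correlated best with each other, but not every library correlated best with its own number. The count in the receptor, related ligand and signalling lists stayed at 0 in all 16 alternatives. In the processing and matrix list it was 1 (Bcan) with a filter of 5 FPKM and 0 in the others. The sign turned, far from the threshold, for Kit (-0.018 to 0.059 with 1 library left out), Pdgfc (-0.0084 to 0.15) and Cx3cl1 (-0.047 to 0.041). Of the 9 ligand genes, 0 changed sign in the pseudocount, scaling and leave-one-out alternatives, of which quantile normalization was not run for Cxcl12, Pdgfb and Lif. Over these alternatives the differences ranged most for Cntf (-2.11 to -0.28), Mdk (-1.01 to -0.41), Pdgfb (-0.63 to -0.04), Lif (-0.56 to -0.08) and Cxcl12 (0.02 to 0.38). At this depth Cxcl12, Mdk, Pdgfb, Lif and Cntf had 6 to 66 estimated reads per group, so moderate differences were not detectable for them.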
